A study of Mus musculus with 82 samples.

Results

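Collagen genes were defined as the protein-coding genes whose symbol is Col followed by a number, the letter a and a number. Of the 55401 genes in the deposited tables, 44 have such a symbol, and 36 of these had counts in aortic vascular smooth muscle cells (aVSMC) of mice. The other 8 lie on chromosome 9 or X, where every gene is listed at 0, so no value is given for them. The 36 genes are described in 8 classes: 10 fibrillar, 4 of the basement membrane network, 2 multiplexins of the basement membrane zone, 8 fibril-associated, 3 of the beaded filament, 3 of the short-chain network, 4 transmembrane and 2 others.

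The cells were primary cultures isolated from aortas of C57BL/6 mice, passaged up to 7 times in a medium with 10% FCS, transferrin, selenite, hydrocortisone, EGF and insulin. All groups, controls included, were then held without serum and supplements for 24 h before EGF (10 µg/L), angiotensin II (AngII, 10 nM) or U46619 (1 µM), a stable thromboxane analog that activates the thromboxane receptor TP, was added for 24 or 48 h. At 24 h there were 7 groups with n = 6 cultures each, 1 from each of 6 mice: control, each substance alone, EGF with either AngII or U46619, and all 3 together. At 48 h there were 6 groups in 2 batches, an EGF/U46619 batch and an EGF/AngII batch of 5 culture sets each, so that control and EGF had n = 10 and AngII, U46619, EGF+AngII and EGF+U46619 had n = 5. A culture set means the cultures with the same replicate number within a batch, and U46619 at 48 h was run only in the first batch and AngII only in the second. The labels number 5 mice for the 10 sets at 48 h, while the methods give each replicate a mouse of its own. How many mice stand behind the 48 h values therefore cannot be told from these sources. At 24 h, the library of mouse 3 with all 3 substances stood apart. Its TMM scaling factor was 0.646, where the other 41 libraries of that time had 0.836 to 1.13, and collagen genes took 0.580% of its counts, where the other 6 libraries of mouse 3 had 1.88% to 2.94%. The count of genes called with all 3 substances and its main values are therefore given with and without mouse 3. At 48 h, the control culture of set 4 in the EGF/AngII batch (B2-4) did not deviate with its own set, with a mean correlation of −0.28 against 0.49 to 0.51 for the other 3 cultures of the set. The libraries held 16483529 to 20818809 counts at 24 h and 19936925 to 33916114 at 48 h.

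Collagens are extracellular proteins built from 3 chains wound into a triple helix. The artery wall owes its tensile strength mainly to the fibrils of type I and type III collagen, on which type V collagen sets the fibril number and width. Type IV collagen forms the sheet-like network of the basement membrane around each muscle cell, and type VI collagen forms beaded filaments between the basement membrane and the fibrils. Chains of 1 trimer often come from different genes, and smooth muscle cells and fibroblasts both make them.

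The promoters of 4 collagen genes are shown because these genes carry the changes described below, and because Col3a1, Col6a1 and Col6a2 fell with U46619 where Col4a2 rose. Each window holds 250 bases before the transcription start and 50 bases from the start on (GRCm38.p6, sequences from RefSeq), 5′ to 3′ on the strand of the gene, and capitals mark matches on either strand to the letters TATAAA of the TATA box, the letters CCAAT of the box named for them, the letters GGGCGG of the GC box and the letters CATTCC of the site of TEAD factors.
Col3a1 (chr1:45311288-45311587, plus strand): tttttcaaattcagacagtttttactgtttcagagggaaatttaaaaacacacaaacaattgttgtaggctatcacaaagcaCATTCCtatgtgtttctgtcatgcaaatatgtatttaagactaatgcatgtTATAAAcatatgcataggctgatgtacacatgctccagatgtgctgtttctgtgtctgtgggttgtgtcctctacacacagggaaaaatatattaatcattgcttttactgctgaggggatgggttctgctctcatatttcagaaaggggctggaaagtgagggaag
Col6a1 (chr10:76725995-76726294, minus strand): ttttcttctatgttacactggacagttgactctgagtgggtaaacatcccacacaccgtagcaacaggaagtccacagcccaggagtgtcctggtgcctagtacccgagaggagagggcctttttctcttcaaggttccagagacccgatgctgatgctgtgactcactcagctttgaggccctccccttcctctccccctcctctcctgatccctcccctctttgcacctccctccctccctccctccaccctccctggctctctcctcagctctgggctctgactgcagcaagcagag
Col6a2 (chr10:76623581-76623880, minus strand): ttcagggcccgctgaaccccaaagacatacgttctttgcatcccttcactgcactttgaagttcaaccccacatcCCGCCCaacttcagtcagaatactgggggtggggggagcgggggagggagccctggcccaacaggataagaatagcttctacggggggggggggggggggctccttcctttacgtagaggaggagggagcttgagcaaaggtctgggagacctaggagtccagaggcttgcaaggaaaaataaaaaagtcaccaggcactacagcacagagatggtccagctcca
Col4a2 (chr8:11312555-11312854, plus strand): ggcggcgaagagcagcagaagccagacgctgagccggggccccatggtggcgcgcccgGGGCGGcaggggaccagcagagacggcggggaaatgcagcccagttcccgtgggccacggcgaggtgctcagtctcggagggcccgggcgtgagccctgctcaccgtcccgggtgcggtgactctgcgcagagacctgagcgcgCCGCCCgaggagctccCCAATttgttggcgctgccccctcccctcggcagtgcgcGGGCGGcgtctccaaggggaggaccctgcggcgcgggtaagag
The Col3a1 window held TATAAA at −117 to −112 and CATTCC at −168 to −163 counted with the start as 1, and had a GC content of 37.7%. The Col6a1 window, taken at a RefSeq start that lies within the GENCODE gene, held none of the 4 motifs, and the Col6a2 window held 1 GGGCGG on the opposite strand at −175 to −170. For Col6a2 the table has another window, at a start further downstream, which is not shown and holds CATTCC and GGGCGG. The Col4a2 window held 1 CCAAT and 3 matches to GGGCGG, with a GC content of 73.7%. The table of promoters matched 28 of the 36 collagen genes with 31 windows, and had no entry for Col1a1, Col2a1, Col4a3, Col5a2, Col9a3, Col14a1, Col22a1 and Col26a1. Among the 31 windows, 16 held GGGCGG (51.6%, against 35.7% of all 32851 windows), 9 CCAAT (29% against 37.4%), 5 TATAAA (16.1% against 13.6%), 4 CATTCC (12.9% against 14.7%) and 0 a CArG box, the site of serum response factor (1.63% of all windows). On opposite strands, matches to GGGCGG and CCAAT can share bases, but no matches overlapped in the 4 windows shown, and a match is a description of the letters only.

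In control cultures at 24 h, the type I chains were the highest collagen transcripts by the mean over the 6 mice. The 36 genes together took 3.28% ± 2.32 (SD, n = 6) of the scaled library, from 0.934% to 7.74% between mice. Levels are given as FPM, fragments per 1000000 after TMM scaling, and levels of different genes are compared as FPM per kb of exon. Per kb, Col1a1 stood at 1089, Col1a2 at 805, Col6a1 at 505, Col3a1 at 383, Col4a1 at 306, Col4a2 at 211, Col6a2 at 153.3, Col5a2 at 131, Col5a1 at 127 and Col6a3 at 79.3. Each step between neighbours in this order was smaller than the SD between mice of the higher gene. The 3 genes with the most fragments held 63.8% of the summed collagen FPM. A control mean of at least 1000 FPM was reached by 9 of the 36 genes and one of at least 5 FPM by 22, while the transmembrane Col13a1, Col17a1 and Col25a1, the fibril-associated Col9a1, Col9a2, Col9a3 and Col19a1, the fibrillar Col24a1 and Col26a1 were under 1 FPM. The filter on low counts left 31 of the 36 genes for the tests at 24 h, without Col9a2, Col13a1, Col19a1, Col25a1 and Col26a1, and 32 at 48 h.

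Collagen transcripts differed widely between mice. Gene positions are given on GRCm38. Col1a1 (ENSMUSG00000001506, chromosome 11, 94936224 to 94953042), the chain present in 2 copies in type I collagen, had 1101 FPM in the lowest control culture, a median of 5027 and 21645 in the highest, that of mouse 1. Col1a2 (ENSMUSG00000029661, chromosome 6, 4504814 to 4541544), its partner chain, ranged from 1720 over a median of 6139 to 31278 FPM. Mouse 4 was lowest and mouse 1 highest for both chains. Col3a1 (ENSMUSG00000026043, chromosome 1, 45311538 to 45349706), which encodes the single chain of type III collagen, ranged from 144 FPM in mouse 4 to 9391 FPM in mouse 1, a ratio of 65.0. The widest range among genes over 5 FPM belonged to Col28a1, a collagen with von Willebrand factor type A domains, with 0.18 to 245 FPM in control. Basement membrane chains differed less: Col4a1 (ENSMUSG00000031502, chromosome 8, 11198423 to 11312826) went from 1181 to 3362 FPM and Col4a2 (ENSMUSG00000031503, chromosome 8, 11312805 to 11449287) from 870 to 2119 FPM. For 12 of 31 tested collagen genes the mean change with U46619 at 24 h was larger than the SD between control mice on the scale of log2(FPM + 0.5).

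**Figure D1:**
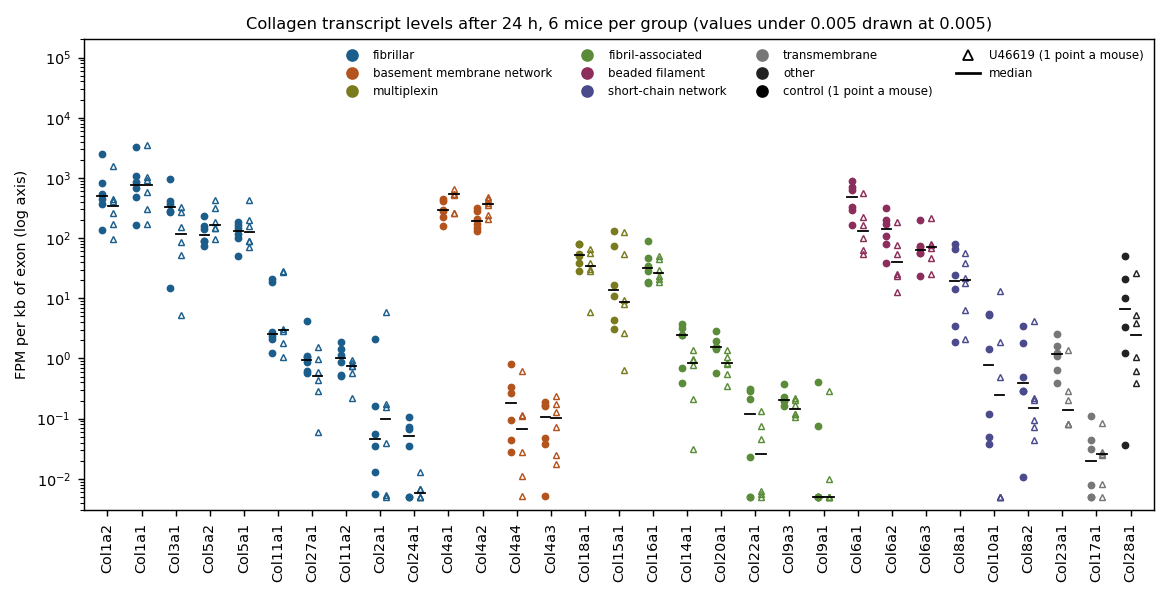
FPM per kb of exon (log axis) of the 31 tested collagen genes at 24 h, by class, with 1 point for each of 6 mice in control (filled circles) and U46619 (open triangles) and a bar at the median. Col1a1, Col1a2 and Col6a1 have the highest medians in control. The points of both groups overlap for each of the 31 genes, where they did not for 3.08% of all genes tested.

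Markers of smooth muscle and of other cell types of the artery wall were read in the same cultures. Of 8 smooth muscle markers, Acta2, Myh11, Smtn, Lmod1, Myl9 and Des had counts. Tagln and Cnn1 lie on chromosome 9, where every gene is listed at 0, so no value is given for them. The sum of the smooth muscle markers was 1549 to 6584 FPM in control at 24 h and 4962 to 17038 FPM with U46619. Acta2, the smooth muscle actin, rose by a log2-fold change of 2.05. Of the 6 tested, 3 were higher DEG with U46619 (12.8% of all genes were), 1 lay below 0 and the median was 0.57. With EGF+U46619 at 24 h, 1 of 6 was a higher DEG, where 16.2% of all genes were. At 48 h with U46619, 0 of 6 passed in the fit with the mouse number, where 3.7% of all genes did. All 6 lay below 0 there, with a median of −0.28. The markers were not read in a fit with the culture set as the block. Of 8 adventitial fibroblast markers, all had counts. Their sum was 724 to 3648 FPM in control and 239 to 2289 FPM with U46619 at 24 h, and 7 of the 8 fell, where 13.8% of all genes were lower DEG: Scara5 (−3.29), Pi16 (−1.47), Cd34 (−1.47), Dcn (−1.40), Dpt (−1.09), Pdgfra (−0.98) and Ly6a (−0.95), with Lum at −1.24 not past the threshold. Of 6 endothelial markers, 5 had counts, and Cdh5, which lies on chromosome 8, had 0 counts in every library. The sum of endothelial markers was 2.93 to 1888 FPM in control and 1.98 to 1688 FPM with U46619, and 0 of 5 tested passed in edgeR and DESeq2. The sums of leukocyte, mesothelial and chondrocyte markers went from 71.8, 215 and 26.4 FPM in control to 41.3, 210 and 10.9 FPM with U46619 (means of 6), with Lyz2 and Sox9 lower and Csf1r and Krt19 higher. The leukocyte markers Ptprc and Adgre1 are at 0 in every control culture at 24 h. In bulk RNA, fewer cells of a type and less RNA per cell cannot be told apart.

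Incubation with U46619 for 24 h changed 13 of 31 tested collagen genes, of which 10 fell and 3 rose. The genes that fell were Col1a2, Col3a1, Col11a2 and Col27a1 among the fibrillar collagens, Col6a1 and Col6a2 of the beaded filament, the fibril-associated Col14a1 and Col20a1, the multiplexin Col18a1 and the transmembrane Col23a1. Those that rose were Col5a2, Col4a1 and Col4a2. A gene was counted as a DEG (differentially expressed gene) when its FDR was under 0.05 in both edgeR and DESeq2, it averaged at least 5 FPM in 1 compared group and it passed the filter on low counts at both times, and the mouse was a term of the fit. Of all 14653 genes tested at 24 h, 26.6% were DEG with U46619, 12.8% higher and 13.8% lower, so that the share of collagen genes that rose, 3 of 31, was no larger than that among all genes. The median log2-fold change of the 31 genes was −0.68, against −0.06 over all genes, and 23 of the 31 lay below 0. By class, DEG made up 5 of 10 fibrillar, 2 of 4 basement membrane network, 1 of 2 multiplexin, 2 of 6 tested fibril-associated, 2 of 3 beaded filament, 0 of 3 short-chain, 1 of 2 tested transmembrane and 0 of 1 tested other genes. Without the mouse in the design, 0 of the 31 were DEG, and without mouse 1 the count was 8. The share of all genes in these fits is not given here, so the lower counts cannot be read as particular to collagen genes. Adventitial fibroblast markers fell in the same cultures, as given above, and their part in these counts was not tested.

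**Figure D2:**
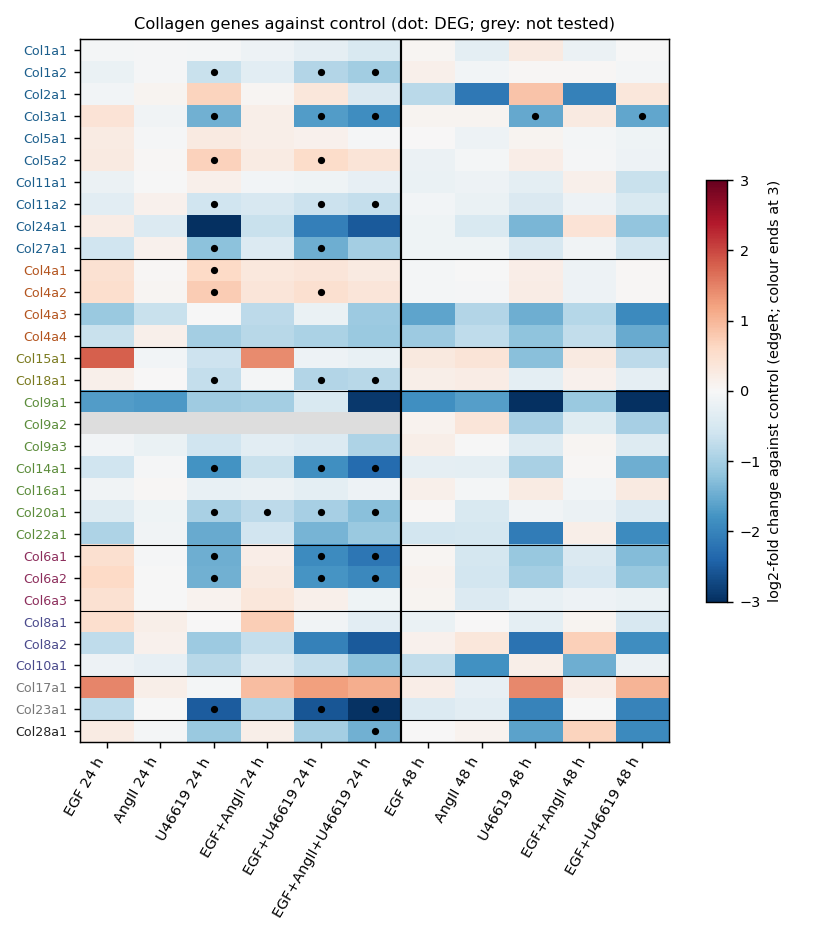
Log2-fold change against control (edgeR, colour scale from −3 to 3) of the tested collagen genes, in rows grouped by class, for the 6 incubations at 24 h and the 5 at 48 h. Dots mark DEG, which are 13, 12 and 10 genes with U46619, EGF+U46619 and EGF+AngII+U46619 at 24 h, Col20a1 with EGF+AngII at 24 h, and Col3a1 with U46619 and EGF+U46619 at 48 h. The fits used the mouse number of the labels, and at 48 h the culture set as the block called more genes with U46619 and EGF+U46619. Grey cells were not tested.

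Among the fibrillar collagens, the chain of type III collagen fell, Col1a2 of type I fell and Col5a2 of type V rose. Col3a1 had 144 FPM in the lowest, 3196 in the median and 9391 in the highest control culture, and 52.2, 1156 and 3188 FPM with U46619. The groups overlapped, but each mouse was lower with U46619 than in its own control. The log2-fold change was −1.44 ± 0.29 (SE, FDR = 0.000348 from edgeR). The difference within a mouse ranged from −2.45 in mouse 5 to −0.02 in mouse 6 on the scale of log2(FPM + 0.5). Col1a2 fell and was lower in 5 of 6 mice, from a mean of 9997 ± 10779.7 to 6168 ± 6832 FPM (SD, n = 6), with a log2-fold change of −0.68 ± 0.24 at FDR = 0.0256 from edgeR. The call for Col1a2 was kept in 2 of the 6 fits that left out a mouse. Col1a1 stood at 7147 ± 7382 FPM in control and 7212 ± 8140.1 FPM with U46619, a log2-fold change of −0.06 with a 95% interval from −0.49 to 0.37.

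Col5a2 (ENSMUSG00000026042, chromosome 1, 45374321 to 45503282), a chain of type V collagen, had a low, median and high value of 719, 1096 and 2277 FPM in control and 914, 1586 and 4111 FPM with U46619. It was higher in 6 of 6 mice, with a log2-fold change of 0.69 ± 0.22 at FDR = 0.0159 from edgeR, although the groups overlapped. Its partner Col5a1 had a log2-fold change of 0.28 with an interval from −0.24 to 0.79. Col3a1 and Col5a2 are neighbours, tail to tail with a gap of 24614 bases, and within each of the 6 mice Col3a1 fell relative to Col5a2, by a mean of −2.18 ± 0.69 (SD) on the log2 scale. The minor fibrillar chains Col27a1 (−1.22 ± 0.45, FDR = 0.035 from edgeR; 18.4 FPM in control) and Col11a2 (−0.59 ± 0.22, FDR = 0.0359 from edgeR; 7.36 FPM in control) fell, each with its call kept in 2 of 6 fits that left out a mouse. Col24a1 had a log2-fold change of −3.27 but stayed under 1 FPM, which is below the minimum for a DEG. Col11a1 and Col2a1, a chain of cartilage collagen, had log2-fold changes of 0.15 and 0.67 and did not pass.

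Col4a1 and Col4a2 of the basement membrane network rose, while the multiplexin Col18a1 fell. Col4a1 and Col4a2 encode the chains that form the usual type IV trimer, and they lie head to head with an overlap of 22 bases at their starts. Col4a1 had 1181, 2180 and 3362 FPM (lowest, median and highest) in control and 1922, 3973 and 4830 FPM with U46619, with a log2-fold change of 0.60 ± 0.17 at FDR = 0.00601 from edgeR. Col4a2 had 870, 1260 and 2119 FPM in control and 1371, 2430 and 3215 FPM with U46619, with a log2-fold change of 0.76 ± 0.19 at FDR = 0.00219 from edgeR. Both were higher in 6 of 6 mice and the groups overlapped. Col5a2 and Col4a1 lost their call only in the fit without mouse 1, and Col4a2 kept its call in all 6. Col4a3 and Col4a4, chains of the specialised basement membranes of kidney and lung, were at 1.02 and 2.77 FPM in control and did not pass (−0.02 and −1.01). Col18a1, whose end piece is endostatin, went from 388 ± 150 to 265 ± 151.4 FPM, a log2-fold change of −0.72 ± 0.29 at FDR = 0.049 from edgeR, and this call was lost in each of the 6 fits that left out a mouse. The related Col15a1 was lower in 6 of 6 mice but did not pass (−0.62 ± 0.43, FDR = 0.263 from edgeR).

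Of the beaded filament chains, Col6a1 and Col6a2 fell and Col6a3 stood near 0 in log2-fold change. Col6a1 (ENSMUSG00000001119, chromosome 10, 76708792 to 76726168) had 712, 2115 and 3929 FPM (lowest, median and highest) in control and 241, 585 and 2420 FPM with U46619. Col6a2 (ENSMUSG00000020241, chromosome 10, 76595762 to 76623630) had 319, 1171 and 2650 FPM in control and 106, 328 and 1527 FPM with U46619. Each was lower in 6 of 6 mice, with the strongest fall in mouse 2 (−3.31 and −2.78 on the scale of log2(FPM + 0.5)) and the weakest in mouse 3 (−0.70 and −0.80), whose values made the groups overlap. Their log2-fold changes were −1.47 ± 0.35 (FDR = 0.00187 from edgeR) and −1.44 ± 0.33 (FDR = 0.00103 from edgeR), and both calls were kept in all 6 fits that left out a mouse. Col6a3 (ENSMUSG00000048126, chromosome 1, 90765923 to 90843971), the largest chain of the same protein, stood at 949 ± 721 FPM in control and 1025 ± 814 FPM with U46619, a log2-fold change of 0.11 with an interval from −0.34 to 0.56 (0.09 with the size factors of DESeq2). Relative to Col6a3 in the same culture, Col6a1 changed by −1.71 ± 0.59 and Col6a2 by −1.64 ± 0.38 on the log2 scale (SD, n = 6), in the same direction in each of the 6 mice. This ratio was formed after the values were seen and was not tested. Col6a1 and Col6a2 lie on the same strand 85161 bases apart, and Col6a3 lies on another chromosome. The class sum went from 4438 to 2396 FPM, and Col6a3 became its largest member, with Col6a1 at 49.9% of the sum in control and Col6a3 at 42.8% with U46619.

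The fibril-associated Col14a1 and Col20a1, which bind to the surface of fibrils, fell with U46619 from low levels. Col14a1 went from 15.2 ± 9.54 to 5.04 ± 3.55 FPM, with a log2-fold change of −1.79 ± 0.36 at FDR = 0.000333 from edgeR, lower in 6 of 6 mice. Col20a1 went from 8.46 ± 3.83 to 4.27 ± 1.88 FPM, with a log2-fold change of −0.98 ± 0.24 at FDR = 0.00177 from edgeR, also lower in 6 of 6. Col16a1, at 266 FPM in control at 24 h, was the most abundant of the 8 fibril-associated genes that had counts. Its log2-fold change was −0.22 with an interval from −0.50 to 0.05. The transmembrane Col23a1 had the largest change among the 13 DEG, from 7.19 ± 4.34 to 2.00 ± 2.88 FPM, a log2-fold change of −2.50 ± 0.50 at FDR = 0.00034 from edgeR, lower in 6 of 6 mice. Of the short-chain collagens, Col8a1 of the vessel wall stood at 244 FPM in control and 187.5 FPM with U46619 (log2-fold change 0.00, interval −0.44 to 0.44), and Col8a2 (−1.10) and Col10a1 (−0.84) did not pass. Col28a1 (−1.12) and Col22a1 (−1.52) had an FDR under 0.05 in edgeR, 0.048 and 0.0383, but were not DEG by the full rule. Col9a1 (−1.06), Col9a3 (−0.60) and Col17a1 (−0.05), all under 1 FPM in control, did not pass.

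**Figure D3:**
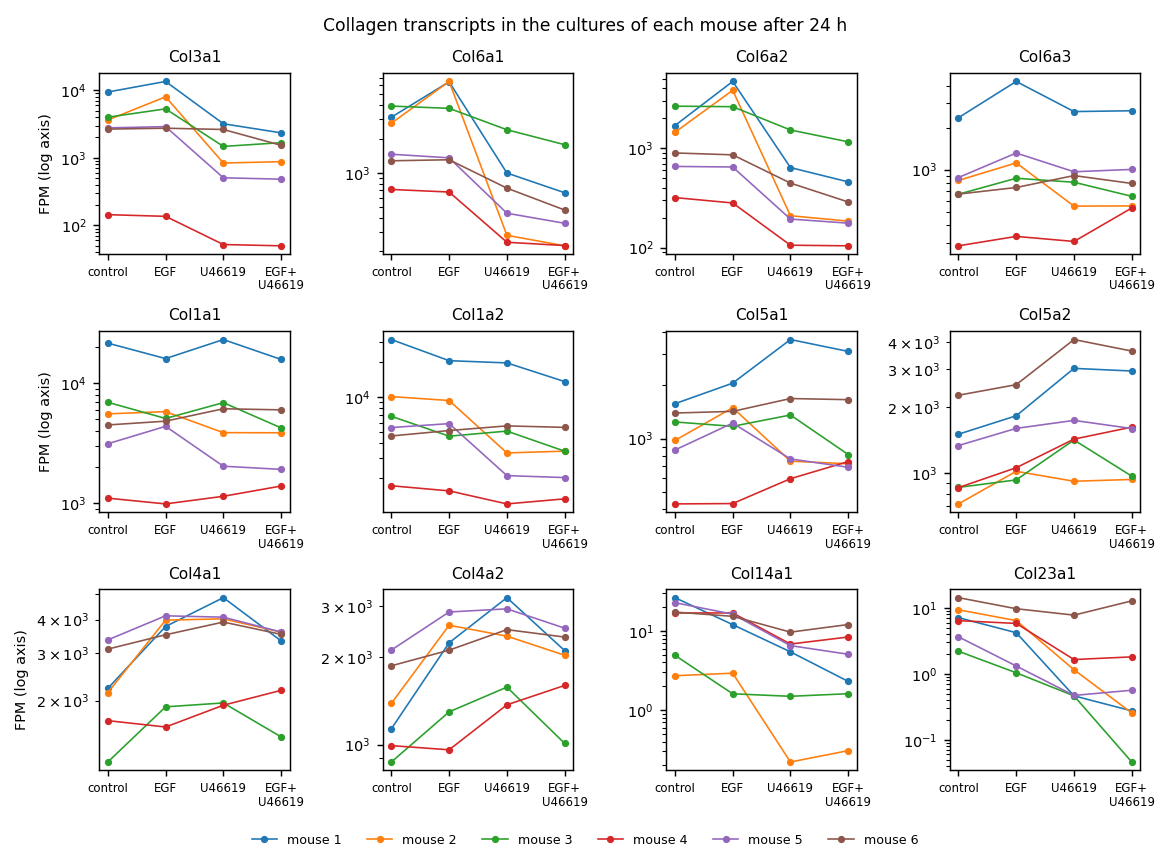
FPM (log axis) of 12 collagen genes at 24 h in control, EGF, U46619 and EGF+U46619, with a line for each of the 6 mice. Col3a1, Col6a1, Col6a2, Col14a1 and Col23a1 are below the mouse's own control with U46619 for all 6 mice, and Col4a1, Col4a2 and Col5a2 are higher in 6 of 6.

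The balance between partner chains was tested for 4 pairs, and no change passed after adjustment. The log2 ratio of Col1a1 to Col1a2, on FPM + 0.5, changed by 0.63 ± 0.32 (SD, n = 6) with U46619 and by 0.61 ± 0.32 with EGF+U46619, higher in 6 of 6 mice each. An exact two-sided sign-flip permutation test gave p = 0.03125 for both, the smallest value that 6 mice allow, and 0.125 after Benjamini-Hochberg adjustment over the 8 ratios tested. Even with 6 of 6 mice in 1 direction, a ratio could pass this adjustment only if most of the 8 reached the same p. The lack of a pass therefore does not show that the balance was unchanged. Col5a1 to Col5a2 changed by −0.42 ± 0.34 and −0.45 ± 0.34, lower in 5 of 6 mice each (exact p = 0.0625, adjusted 0.125). Col4a1 to Col4a2 changed by −0.15 and −0.11 and Col6a1 to Col6a2 by −0.07 and −0.16, with exact p values of 0.125, 0.25, 0.625 and 0.3125. With U46619 the sign for Col6a1 to Col6a2 depended on mouse 2, and the ratio changed by 0.02 without it. In the EGF/U46619 batch at 48 h the changes with U46619, given as values, were 0.28 ± 0.33 for Col1a1 to Col1a2, in 5 of 5 sets higher, and −0.39 ± 0.23 for Col5a1 to Col5a2, in 5 of 5 sets lower. The first value rested on set 3, at 0.85, and was 0.14 ± 0.09 without it. With EGF+U46619 at 48 h Col1a1 to Col1a2 changed by 0.09 ± 0.30, higher in 3 sets and lower in 2, and by −0.01 ± 0.24 without set 3.

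**Figure D4:**
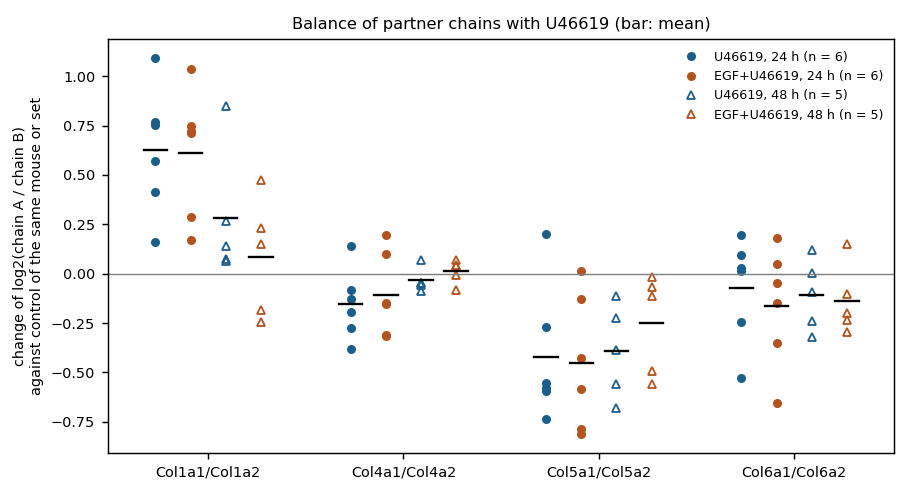
Change of the log2 ratio of 4 pairs of partner chains against the control of the same mouse or culture set, with U46619 and EGF+U46619 at 24 h (filled circles, n = 6) and 48 h (open triangles, n = 5) and a bar at the mean. For Col1a1 to Col1a2 with U46619 at 24 h, all 6 points lie above 0, around a mean of 0.63.

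With EGF alone at 24 h, 0 of 31 collagen genes were DEG by edgeR and DESeq2, where 4 of all 14653 genes (0.0273%) were. The paper reported a larger number of DEG for this incubation, and why the counts differ was not tested. Of the 31 collagen genes, 5 had an unadjusted p under 0.05 in edgeR, all with higher values, and DESeq2 alone called 1. Of all 14653 genes, 2546 reached p < 0.05 before adjustment in both edgeR and DESeq2, 1143 of them higher. Col15a1 had the largest value in this comparison. It had 19.9, 88.0 and 825 FPM (lowest, median and highest) in control and 85.7, 375 and 933 FPM with EGF, a log2-fold change of 1.80 ± 0.44 at FDR = 0.071 from edgeR, higher in 6 of 6 mice and with overlapping groups. Without mouse 6 it was a DEG (2.05, FDR = 0.0273 from edgeR). In the cultures with EGF+U46619 it had a median of 77.9 FPM, and the direct comparison of EGF+U46619 with EGF gave −1.95 ± 0.45 (FDR = 0.00305 from edgeR), a call kept in all 6 fits that left out a mouse. Col4a1 and Col4a2 had log2-fold changes of 0.47 and 0.52 with EGF (FDR = 0.143 each from edgeR), and Col3a1, Col6a1 and Col6a2 of 0.40, 0.48 and 0.59.

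With AngII alone at 24 h, 0 of 31 collagen genes passed in either edgeR or DESeq2, and 0 had an unadjusted p under 0.05 in edgeR. Of all genes 0% were DEG, and 64 of 14653 reached p < 0.05 before adjustment in both edgeR and DESeq2. For Col3a1, Col6a1, Col6a2 and Col4a2 the log2-fold changes were −0.10 (interval −0.65 to 0.45), −0.03 (−0.70 to 0.65), −0.01 (−0.64 to 0.61) and 0.05 (−0.31 to 0.41). With EGF+AngII, 1 of 31 fell, Col20a1 (−0.79 ± 0.23, FDR = 0.0495 from edgeR), where 1.58% of all genes were lower DEG, and this call was lost in each of the 6 fits that left out a mouse. Col15a1 had a log2-fold change of 1.43 ± 0.43 with EGF+AngII (FDR = 0.0559 from edgeR), higher in 6 of 6 mice, and was a DEG without mouse 6 (1.66, FDR = 0.0283 from edgeR).

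With EGF+U46619 at 24 h, 12 of 31 collagen genes were DEG, 10 lower and 2 higher, where 31.8% of all genes were DEG, 15.7% lower and 16.2% higher. The 2 higher genes were Col5a2 (0.56 ± 0.22, FDR = 0.0403 from edgeR) and Col4a2 (0.48 ± 0.19, FDR = 0.0375 from edgeR), each kept in 1 of 6 fits that left out a mouse. Col6a1 had 225, 412 and 1781 FPM (lowest, median and highest), which made a difference of −1.88 ± 0.36 (log2, FDR = 0.000112 from edgeR). Col6a2 stood at −1.78 ± 0.33 (FDR = 8.53e-05 from edgeR) and Col3a1 at −1.67 ± 0.29 (FDR = 4.31e-05 from edgeR), each lower in 6 of 6 mice. The values of Col23a1, Col14a1, Col27a1, Col20a1, Col1a2, Col18a1 and Col11a2 were −2.56, −1.85, −1.47, −0.999, −0.88, −0.87 and −0.65. The median over the 31 genes was −0.65 against −0.05 over all genes. Adventitial fibroblast markers summed to 233 to 1320 FPM in this group, and 7 of 8 were lower DEG. Their part in the result was not tested.

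Whether EGF altered the response to U46619 was tested directly. Between EGF+U46619 and U46619 at 24 h, 0 of 31 collagen genes passed in edgeR or DESeq2 and 0 had an unadjusted p under 0.05 in edgeR, where 0% of all genes passed and 368 had such a p in edgeR as well as DESeq2. Col6a1 and Col6a2 were lower with the combination in 6 of 6 mice, by log2-fold changes of −0.41 (interval −1.09 to 0.26) and −0.33 (−0.96 to 0.29). For the interaction of EGF and U46619, 0 of 31 passed in either tool and 3 had an unadjusted p under 0.05 in edgeR, all below 0: Col4a2 (−0.80 ± 0.26), Col4a1 (−0.69 ± 0.24) and Col15a1 (−1.32 ± 0.60). Of all genes 0% passed this test, and 437 reached p < 0.05 before adjustment in edgeR and in DESeq2. Between EGF+U46619 and EGF, 7 of 31 fell and none of the 31 rose in the edgeR and DESeq2 calls, where 6.09% of all genes were lower DEG: Col3a1 (−2.07 ± 0.30), Col6a1 (−2.36 ± 0.37), Col6a2 (−2.36 ± 0.34), Col15a1 (−1.95), Col14a1 (−1.25), Col18a1 (−1.02) and Col1a2 (−0.67). The calls of Col1a2, Col14a1 and Col18a1 were kept in 2, 3 and 5 of the 6 fits that left out a mouse. The median of the 31 genes was −0.47. Of the adventitial fibroblast markers, 6 of 8 were lower DEG and 8 of 8 lay below 0 in this comparison, with a median of −1.43, and their part in the result was not tested.

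With all 3 substances at 24 h, 10 of 31 collagen genes were DEG and all 10 fell, where 33.1% of all genes were DEG and 15.6% were lower. Col6a1 had 218, 357 and 929 FPM (lowest, median and highest), a log2-fold change of −2.16 ± 0.36 at FDR = 1.86e-05 from edgeR. The values of Col23a1, Col14a1, Col6a2, Col3a1, Col28a1, Col20a1, Col1a2, Col18a1 and Col11a2 were −2.96, −2.30, −1.94, −1.87, −1.45, −1.25, −1.05, −0.82 and −0.72. The call of Col28a1 was kept in 1 of 6 fits that left out a mouse. Col5a2, Col4a1 and Col4a2, the genes that rose with U46619 alone, stood at 0.40, 0.28 and 0.37 here and did not pass, and in mouse 3 all 3 were lower than in its control (−2.01, −0.92 and −1.11 on the scale of log2(FPM + 0.5)). Without mouse 3, these 3 genes rose with all 3 substances, Col5a2 by 0.68 ± 0.13, Col4a1 by 0.45 ± 0.14 and Col4a2 by 0.59 ± 0.15 (FDR = 0.000222, 0.0101 and 0.00316 from edgeR), and 12 collagen genes were DEG, of which 9 fell. In that fit Col18a1 and Col28a1 lost their calls and Col8a2 (−2.33) gained one, while Col6a1, Col6a2 and Col3a1 stood at −2.19, −2.04 and −1.72. The share of all genes called without mouse 3 is not given here. These comparisons share their 6 control cultures with those above. The median of the 31 genes was −1.01 against −0.04 over all genes, and 8 of 8 adventitial fibroblast markers were lower DEG in the same cultures. This median and these marker calls are given only with the library of mouse 3 included. The part of the markers in the result was not tested.

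The share of the scaled library that collagens took overlapped between the groups. The 36 genes took 2.77% ± 2.02 with U46619, 3.60% ± 2.31 with EGF, 2.28% ± 1.35 with EGF+U46619 and 2.11% ± 1.36 with all 3 substances (SD, n = 6 each), against 3.28% ± 2.32 in control. The value with all 3 substances includes the library of mouse 3, which stood apart. Of the summed collagen FPM, averaged over mice, the basement membrane network held 15.6% ± 9.55 in control and 26.7% ± 12.6 with U46619, the beaded filament 14.6% ± 5.32 and 9.06% ± 4.93, and the fibrillar collagens 64.1% ± 13.2 and 59.7% ± 13.6. These shares were not tested.

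At 48 h, 1 collagen gene, Col3a1, fell with U46619 in the fit with the mouse number of the labels. The fit with the culture set as the block called more, as given below. In the 5 culture sets of the EGF/U46619 batch Col3a1 had 1622, 9956, 643, 602 and 760 FPM in control, 383, 2774, 278, 263 and 519 FPM with U46619 and 353, 2283, 233, 241 and 756 FPM with EGF+U46619. Set 2 was far above the others in each group, the groups overlapped, and each set was lower with U46619 than in its own control. Against all 10 controls, with the mouse number of the labels in the fit, the log2-fold change was −1.54 ± 0.30 with U46619 (FDR = 0.00274 from edgeR) and −1.56 ± 0.30 with EGF+U46619 (FDR = 0.00146 from edgeR), and against EGF that of EGF+U46619 was −1.64 (FDR = 0.00158 from edgeR). Of all 15796 genes tested at 48 h, 1.42%, 2.77% and 2.02% were lower DEG in these 3 comparisons, each of which called 1 of 32 collagen genes. The median of the 32 genes with U46619 was −0.41, against −0.03 over all genes.

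Cultures of a set, rather than those with the same mouse number, deviated together at 48 h, so the fit with the culture set as the block is given beside these values. It called 5 of 32 collagen genes with U46619 where 9.79% of all genes were DEG, 7 with EGF+U46619 where 13.7% were, and 7 for EGF+U46619 against EGF where 12.1% were, all lower. Col6a1 stood at −1.61 ± 0.23 and Col6a2 at −1.50 ± 0.23 with U46619 in this fit (FDR = 4.03e-05 and 6.3e-05 from edgeR), against −1.14 and −1.01 with the mouse number (FDR = 0.199 and 0.304 from edgeR). Col15a1 (−1.23), Col23a1 (−1.42) and Col3a1 (−1.37) were the others with U46619. With EGF+U46619 the block called Col6a1 (−1.81), Col6a2 (−1.64), Col23a1 (−1.53), Col14a1 (−1.32), Col20a1 (−0.71) and Col11a1 (−0.69) beside Col3a1. In the EGF/U46619 batch alone, with the same block, 9, 10 and 11 collagen genes were called in the 3 comparisons, where 21.2%, 25.8% and 13.8% of the genes tested there were. Among these was Col2a1 (1.10 ± 0.26 with U46619, FDR = 0.00582 from edgeR), the 1 that rose with U46619.

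Within the sets of the EGF/U46619 batch, Col6a1 had 1912, 1694, 696, 619 and 909 FPM in control and 383, 317, 323, 190 and 708 FPM with U46619. Col6a2 had 1358, 1003, 423, 422 and 461 FPM in control and 338.9, 172.4, 209.5, 153.02 and 357.7 FPM with U46619. Each set was lower with U46619 for both genes, the smallest fall was that of set 5 (−0.36 and −0.37 on the scale of log2(FPM + 0.5)), and the groups overlapped for Col6a1. The 2 groups of 5 did not overlap for 2 of 32 collagen genes, Col6a2 and Col8a2 (0.227 FPM with U46619), where they did not for 3.06% of all genes. Relative to Col6a3, Col6a1 changed by −1.12 ± 0.65 and Col6a2 by −1.02 ± 0.54 (SD, n = 5), lower in 5 of 5 sets. Col6a3 itself was called in the EGF/U46619 batch alone for EGF+U46619 against EGF (−0.77 ± 0.25, FDR = 0.0459 from edgeR). Col4a1 and Col4a2 were higher with U46619 in 5 of 5 sets, by 0.20 ± 0.20 and 0.23 ± 0.19 on that scale, and were not among the calls of any of these fits by edgeR and DESeq2. With EGF+U46619 they were higher in 3 of 5 sets (0.05 ± 0.28 and 0.03 ± 0.30), and against EGF they were lower with EGF+U46619 in 5 of 5 sets (−0.14 ± 0.14 and −0.17 ± 0.14). Adventitial fibroblast markers summed to 618 to 2405 FPM with U46619 at 48 h and 861 to 3540 FPM in all controls. In the fit with the mouse number, 2 of these 8 markers (Scara5 and Pi16) fell, where 1.42% of all genes were lower DEG. These markers were not read in the fit with the culture set as the block. Their part in the result was not tested.

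**Figure D5:**
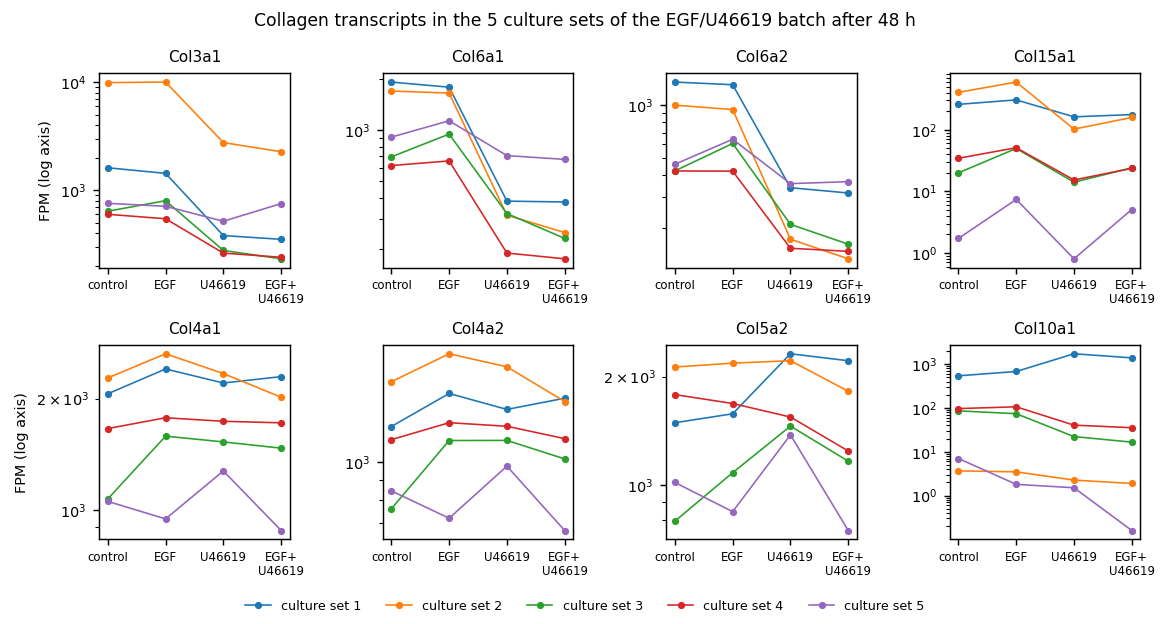
FPM (log axis) of 8 collagen genes in the 5 culture sets of the EGF/U46619 batch at 48 h, with a line for each set over control, EGF, U46619 and EGF+U46619. Col3a1, Col6a1 and Col6a2 are lower with U46619 in 5 of 5 sets, and Col10a1 of set 1 is at 542 FPM in control and 1726 FPM with U46619.

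No collagen gene passed at 48 h with EGF, AngII or EGF+AngII, between EGF+U46619 and U46619 or for the interaction of EGF and U46619, in either edgeR or DESeq2. Of the 32 tested, 1, 1, 1, 1 and 0 had an unadjusted p under 0.05 in edgeR. Over all genes, 0% were called in each of the 5 comparisons, and 141, 255, 300, 61 and 44 genes reached p < 0.05 before adjustment with edgeR and with DESeq2. In control cultures at 48 h, where the collagen share was 1.73% ± 1.03 (SD, n = 10), the order per kb again began with Col1a1 (509) and Col1a2 (317), followed by Col6a1 (207), Col4a1 (200) and Col3a1 (193). The tables of both times were scaled separately, so no difference between them was tested.

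Genes that modify, fold, process and cross-link collagen moved in both directions with U46619. Of a list of 35 such genes, 28 were tested at 24 h. Plod2, Crtap, Ppib, Pcolce2 and Loxl1 lie on chromosome 9, where every gene is listed at 0, so no value is given for them. With U46619, 8 of the 28 rose and 3 fell, where 12.8% of all genes were higher and 13.8% lower DEG. The procollagen proteinase Tll1 rose from 5.90 ± 5.55 to 21.5 ± 26.5 FPM (log2-fold change 1.51 ± 0.42, FDR = 0.00542 from edgeR), the cross-linking oxidase Loxl3 by 1.03 ± 0.25 (FDR = 0.00202 from edgeR) and the lysyl hydroxylase Plod3 from 228 ± 54.1 to 383 ± 118 FPM (0.71 ± 0.13, FDR = 0.000114 from edgeR). Loxl2, another such oxidase, rose by 0.65. The N-propeptidase Adamts2, which trims type I and type III procollagen, fell from a mean of 912 to 471 FPM (−0.96 ± 0.24, FDR = 0.00206 from edgeR). Pcolce, which enhances the removal of the C-propeptide, fell from 1906 ± 1512 to 884 ± 429.8 FPM (−0.95 ± 0.21, FDR = 0.000965 from edgeR).

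The same list had 6 higher and 3 lower genes with EGF+U46619, where 16.2% of all genes were higher and 15.7% lower DEG. With all 3 substances it had 7 higher and 3 lower, where 17.5% and 15.6% of all genes were. For EGF+U46619 against EGF it had 4 of each, where 6.68% and 6.09% of all genes were, and the oxidase Lox rose from 623 to 1398 FPM (FDR = 0.00736 from edgeR). With EGF+U46619, Tll1 stood at 2.26 and Adamts2 at −1.38. Serpinh1, the collagen chaperone of the endoplasmic reticulum, had 2453 FPM in control and a log2-fold change of 0.21 with U46619, which did not pass. At 48 h, in the fit with the mouse number, only Loxl4 of the list passed with U46619 (0.77 ± 0.20, FDR = 0.023 from edgeR), where 2.28% of all genes were higher DEG. The list was not read in the fit with the culture set as the block. That fit called 9.79% of all genes with U46619, against 3.7% with the mouse number.

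Some counts could hold fragments of an overlapping gene, since the strand setting of the counting is not stated in the sources used here and reads with several alignments were included. Col3a1 shares 141 exon bases (1.436% of its exon length) with Gm47302 on the same strand, Col4a1 and Col4a2 share 22 with each other, Col9a3 shares 234 (6.073%) with Tcfl5 and Col4a3 shares 563 (5.649%) with C430014B12Rik. For Col6a1, Col6a2 and Col6a3 no shared exon was found in this annotation.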

How the data were processed

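RNA-seq of 82 libraries of mouse aVSMC was used. According to the methods and the submitters' processing notes, the authors aligned reads with HISAT2 2.1.0 to mm10 (GRCm38) and counted them per gene with featureCounts, reads with several alignments included, and they deposited these raw counts. The strand setting is not given in the sources used here. FPM were computed from the counts with TMM library sizes of edgeR 4.0.16 (R 4.3.3). Counts were fitted with edgeR's quasi-likelihood test with the mouse number and the group as terms, all groups of a time together, after a filter on low counts (filterByExpr), and with DESeq2 1.42.0 (Wald test, all genes with a count, independent filtering). P-values were adjusted by Benjamini-Hochberg over all genes of each fit. Partner chain ratios were tested by an exact permutation of signs computed with NumPy 2.4.6, with the Benjamini-Hochberg adjustment from SciPy 1.17.1. The pipeline was tested on simulated data. No libraries of the same group were duplicates (smallest chi-square per degree of freedom between replicates 42.9). Libraries of different groups were not compared in this way, so a duplicate or swap between groups could not be found by it.

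The members and lists were chosen with earlier results of these data known. Full values were given for the 3 highest collagen genes in control, per comparison up to 8 DEG with the largest changes, partner chains and up to 6 DEG of the processing list. Ratios to Col6a3, Col5a2 and Col1a1 and the classes' shares were chosen after the values were seen. At 24 h all 126 pairs of cultures of a mouse had a correlation of deviations over 0.1 (median 0.776), so the mouse pairs the samples. At 48 h 57 of 60 pairs of a culture set did (median 0.809), against 74 of 160 pairs that share only a mouse number. All 7075 genes on chromosomes 9, X, Y and MT are listed at 0. Alternatives were other scaling, filters, pseudocounts of 1 and 0.1, blocks, batches, DESeq2 alone and leaving out each replicate.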

Additional observations from a re-analysis of the deposited data

Results flagged for a closer look

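In 22 of 130 groups of collagen values checked, a culture lay far from the others of its group (Dixon's test on FPM). The groups share their mice or culture sets, so these flags are not independent and no chance rate is given for them. At 24 h most were of mouse 1. Its Col1a1 stood at 21645 FPM in control, 16082 with EGF, 19312 with AngII, 23188 with U46619, 12742 with EGF+AngII, 15812 with EGF+U46619 and 14295 with all 3 substances. Its Col1a2 stood at 31278 FPM in control, 19676 with U46619, 13586 with EGF+U46619 and 13132 with all 3, and its Col5a1 at 3639 FPM with U46619. Mouse 3 stood apart for Col6a1 with U46619 (2420 FPM) and EGF+U46619 (1781 FPM) and for Col6a2 with EGF+U46619 (1160 FPM). At 48 h, set 2 of the EGF/U46619 batch stood apart for Col3a1 in control (9956 FPM), EGF (10071 FPM), U46619 (2774 FPM) and EGF+U46619 (2283 FPM), and for Col5a1 in control (1532 FPM) and EGF (1640 FPM). The culture set B2-4 of the EGF/AngII batch stood apart for Col3a1 with EGF+AngII (2538 FPM). Of 180 pairs of effects, 0 moved every culture one way at 24 h and every culture the other way at 48 h.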

How the results depend on the processing

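The counts of collagen DEG at 24 h depended most on the replicate block. Shares of all genes are not set beside the counts of this section, so the counts do not show whether a change is particular to collagen genes. Without the mouse in the fit (no replicate block), 0 genes were called with U46619, 0 with EGF+AngII, 1 with EGF+U46619, 2 with all 3 substances and 0 for EGF+U46619 against EGF, and at 48 h 0 in each of the 3 comparisons that had called Col3a1. With the culture set as replicate block at 48 h, 5, 7 and 7 genes were called, and in the EGF/U46619 batch alone with that block 9, 10 and 11. With batch as a further term, EGF+U46619 gave 2 and EGF+U46619 against EGF 2. DESeq2 alone called 1 with EGF and 3 with EGF+AngII at 24 h, and 2 in each of those 3 comparisons at 48 h. For EGF+AngII at 24 h, DESeq2 size factors gave 0, at least 10 counts in every library 2 and a fit of the compared groups only 0. Fitting only the groups compared gave 6 with all 3 substances and 0 for EGF+U46619 against EGF at 48 h. With no filter on low counts, EGF at 24 h gave 1. Leaving out a replicate gave 0 to 1 genes with EGF, 8 to 12 with U46619, 0 to 2 with EGF+AngII, 8 to 13 with EGF+U46619, 8 to 12 with all 3 substances and 5 to 9 for EGF+U46619 against EGF at 24 h, and 1 to 2, 1 to 2 and 1 to 1 at 48 h. The lowest count with U46619, 8, was that without mouse 1. Leaving out a replicate, the ratio of Col6a1 to Col6a2 with U46619 changed by −0.13 (without mouse 6) to 0.018 (without mouse 2), against −0.07 over all 6 mice. Of 387 gene values at 24 h, 275 kept their call, 112 lost it and 0 reversed, and of 51 at 48 h, 47 kept it, 4 lost it and 0 reversed. Without the control culture B2-4, left out after the data were seen because of its correlation of −0.28 with its own set, 1 gene was called in each of the 3 comparisons at 48 h. The cause of these differences was not tested. Depth limits the genes under 1 FPM, and 6 mice allow no exact p under 0.03125.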
